A study of Mus musculus with 166 samples.

Results

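Mir455 is 1 of the 1626 microRNA transcripts in the count table of a cerebellar small-RNA study of Htt knock-in mice. It was chosen by its transcript ID (ENSMUST00000093594), because its level was low in the Q175 line at 6 and 10 months. A further reason was that, in earlier results of these data, this difference depended on the sequencing lane. The Q175 differences at those ages, and the lane values at 10 months and in library series 330 at 6 months, are therefore given as a description with no test. In the fits below the Q175 log2 difference at 10 months was -0.85 without a lane term and -0.80 with it. At 6 months it was -1.20 and -0.87. Mir455 was among the 454 microRNAs that passed the low-count filter.

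The 166 libraries came from the cerebellum of C57BL/6 mice, 1 mouse per library. Mice of 6 lines were heterozygous (Het) for a knock-in allele named Q20, Q80, Q92, Q111, Q140 or Q175 after its CAG repeat length, with 1 endogenous Htt allele, and the last line was wild type (WT). By the study's methods WT were littermates of Q20, and Q175 arose from Q140 by a spontaneous expansion. The other knock-in lines are listed there under separate allele names, so between them CAG length and the origin of a line cannot be told apart. Mice were taken at 2, 6 and 10 months, with females and males in every group. There were 8 libraries per line and age, or 7 in the Q111 and Q140 groups at 10 months. Controls were Q20 and WT.

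Total counts lay between 3094703 and 6188935 per library (median 4321047.5). Library names carried a series number (330 for WT and Q175 at 6 months, and another for all remaining libraries, called the main series here) and an L number, which was read here as the sequencing lane, although the labels do not define it. By the connectivity rule of the study's methods, 9 libraries stood apart from the others of their age and were left out of the fits, which leaves 157. The methods do not say which features enter the rule: low-count features were removed first here, and with all features 6 of these 9 and no other library would be left out. Of these 9, 8 were taken at 2 months and 1 at 10 months. The neuronal list of 8 microRNAs, of which 7 were tested, was summed in CPM (counts scaled to a common library size). It lay between 56399.5 and 71232.0 CPM in the fitted Q175 and WT libraries of 6 months and Q175 and control libraries of 10 months.

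A microRNA is cut from a hairpin precursor, and bases 2 to 8 of the mature strand, the seed, pair with target messenger RNAs. Mir455 lies in an intron of Col27a1, which encodes a fibrillar collagen of cartilage. miR-455 is best known from chondrocytes, and in mice it also takes part in the formation of brown fat cells.

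In GENCODE M21 (GRCm38) the Mir455 hairpin is an annotated miRNA gene on the plus strand, chr4:63256851-63256932, and 82 nt long. It lies within Col27a1 (63214004 to 63334991, plus strand), in intron 10 of the 61-exon transcript ENSMUST00000036300. That intron spans 63254742 to 63257059 (2318 nt), and the hairpin begins 2109 nt after the upstream exon and ends 127 nt before the next. The hairpin is shown with both mature strands in capitals, since the counts are per hairpin and do not separate the strands:
mmu-mir-455 hairpin: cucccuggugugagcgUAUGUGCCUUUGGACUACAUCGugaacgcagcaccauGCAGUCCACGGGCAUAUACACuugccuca
The mature strands are given from RefSeq (GRCm38.p6) with the seed in capitals, beside the mouse microRNA whose seed matches that of the 5p strand:
mmu-miR-455-5p: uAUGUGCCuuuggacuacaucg
mmu-miR-455-3p: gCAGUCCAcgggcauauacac
mmu-miR-5129-3p: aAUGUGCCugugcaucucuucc

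Of 1738 mature mouse sequences, mmu-miR-5129-3p was the only other one with the 5p seed, and none shared the 3p seed. Against 2201 other microRNA hairpins the longest run shared with Mir455 was 11 nt. Its counts were whole numbers in all 166 libraries, so they show no sign of reads divided between transcripts. Mir5129 was rare, with 1320 counts over all libraries and a level of 0.283 to 4.07 CPM (median 1.67). Its deviations from the group means did not follow those of Mir455 (Spearman rho of -0.03, FDR = 0.896 by permutation; Pearson r of -0.04, FDR = 0.871).

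Mir455 was a microRNA of middling abundance that was detected in every library. It took 0.00387% of all counts and ranked 222 of 454 by mean level over the 157 libraries. Its count ran from 82 to 677, and its level from 18.3 to 124 CPM, a 6.78-fold range. All levels are in CPM of a library size adjusted by the trimmed mean of M-values (TMM), unless another scale is named.

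Most libraries lay in a lower range of levels and 29 lay above it. In 137 libraries Mir455 lay between 18.3 and 46.2 CPM (82 to 198 counts, median 29.05 CPM). In the other 29 it lay between 54.7 and 124 CPM (235 to 677 counts, median 77.1 CPM). No library lay between 46.2 and 54.7 CPM, a 1.18-fold gap, and the next library below 46.2 CPM was at 40.6 CPM. Whether the libraries form separate levels was not tested. A line at 50 CPM, chosen after the values were seen, is used here only to count libraries. The total counts of the 29 libraries (3293523 to 6188935) covered most of the range of the series, and rho of the level with the total count was -0.01 over all 166 libraries. The same 29 libraries were the highest in CPM without TMM and in the deposited RPKM.

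**Figure D1:**
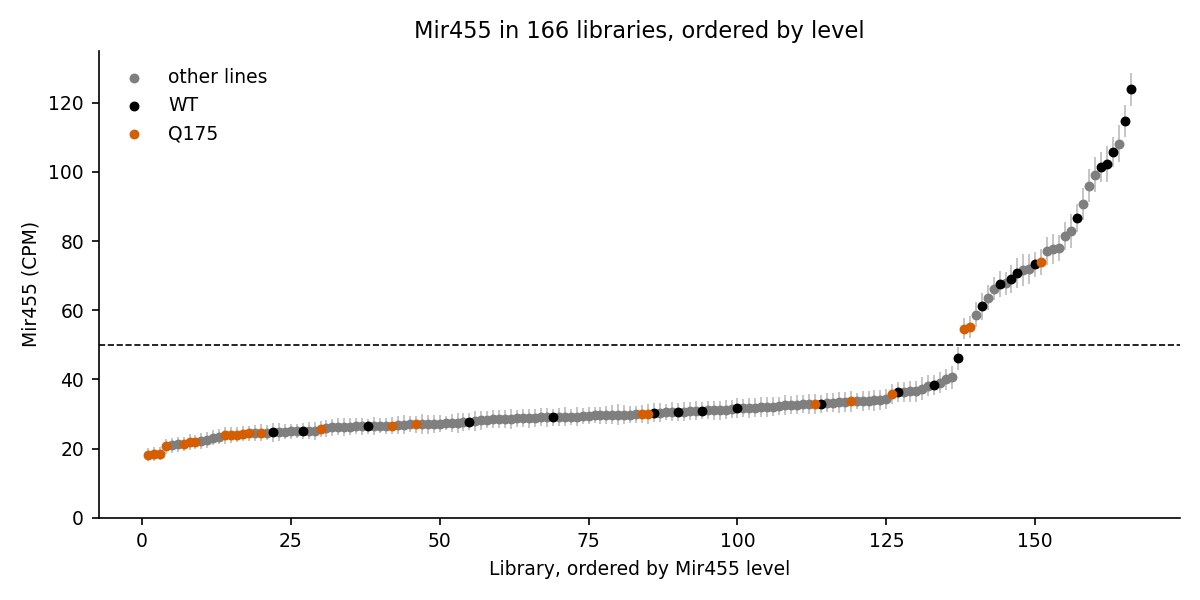
Mir455 level in CPM (vertical axis, linear) in the 166 libraries ordered from lowest to highest (horizontal axis); points are libraries, grey bars are the counting error (the CPM value of the square root of the count) and the dashed line marks 50 CPM. The first 137 libraries run from 18.3 to 46.2 CPM and the last 29 from 54.7 to 124 CPM, of which 11 are WT and 3 are Q175.

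The high libraries were found in 16 of the 21 groups of line and age. WT held 11 of its 24 libraries above 50 CPM, Q92 held 5 of 24, Q20, Q111 and Q175 held 3 each (of 24, 23 and 24), and Q80 and Q140 held 2 each (of 24 and 23). By age, 11 of 56 libraries at 2 months, 11 of 56 at 6 months and 7 of 54 at 10 months were high. By sex, 19 of 83 female and 10 of 83 male libraries were high. These counts describe the libraries and were not tested. The high libraries carried 19 of the 36 index numbers in the library names, with at most 3 on 1 index.

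Among the controls at 2 months, WT ranged from 24.7 to 102 CPM (median 53.6) and Q20 from 26.3 to 108 CPM (median 31.5). At 6 months WT ranged from 25.1 to 124 CPM (median 80.0) and Q20 from 22.5 to 36.4 CPM (median 30.5). At 10 months WT ranged from 26.5 to 101 CPM (median 31.99) and Q20 from 26.4 to 81.5 CPM (median 33.9). The WT group at 6 months was the only one in which most libraries were high, with 6 of 8, and at 2 months 4 of its 8 were. At 10 months 1 WT library (M1) and 2 Q20 libraries (F3 and F5) stood above an otherwise narrow range.

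In Q80 the ranges were 27.5 to 82.9 CPM at 2 months (median 33.8), 25.2 to 36.5 at 6 months (median 32.1) and 24.7 to 32.7 at 10 months (median 29.2). In Q92 they were 28.8 to 66.3 CPM (median 30.4), 29.1 to 96.0 (median 31.97) and 23.4 to 99.2 (median 29.8). These lines thus had medians near 30 CPM at each age, with high libraries in all 3 Q92 groups and in 1 Q80 group. In Q111 the ranges were 24.8 to 90.8 CPM at 2 months (median 28.95), 27.1 to 77.1 at 6 months (median 33.1) and 23.1 to 58.7 at 10 months (median 26.3). In Q140 they were 26.2 to 71.9 CPM (median 29.4), 22.2 to 31.04 (median 25.9) and 20.9 to 67.8 (median 27.01). Each of these groups but Q140 at 6 months held exactly 1 high library.

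Q175 ranged from 23.8 to 54.7 CPM at 2 months (median 31.5), from 21.4 to 73.8 at 6 months (median 24.2) and from 18.3 to 30.03 at 10 months (median 21.3). At 6 months its F3 and M3 libraries were high, at 55.1 and 73.8 CPM, and the others lay between 21.4 and 24.4. At 10 months none of its 8 libraries was high.

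**Figure D2:**
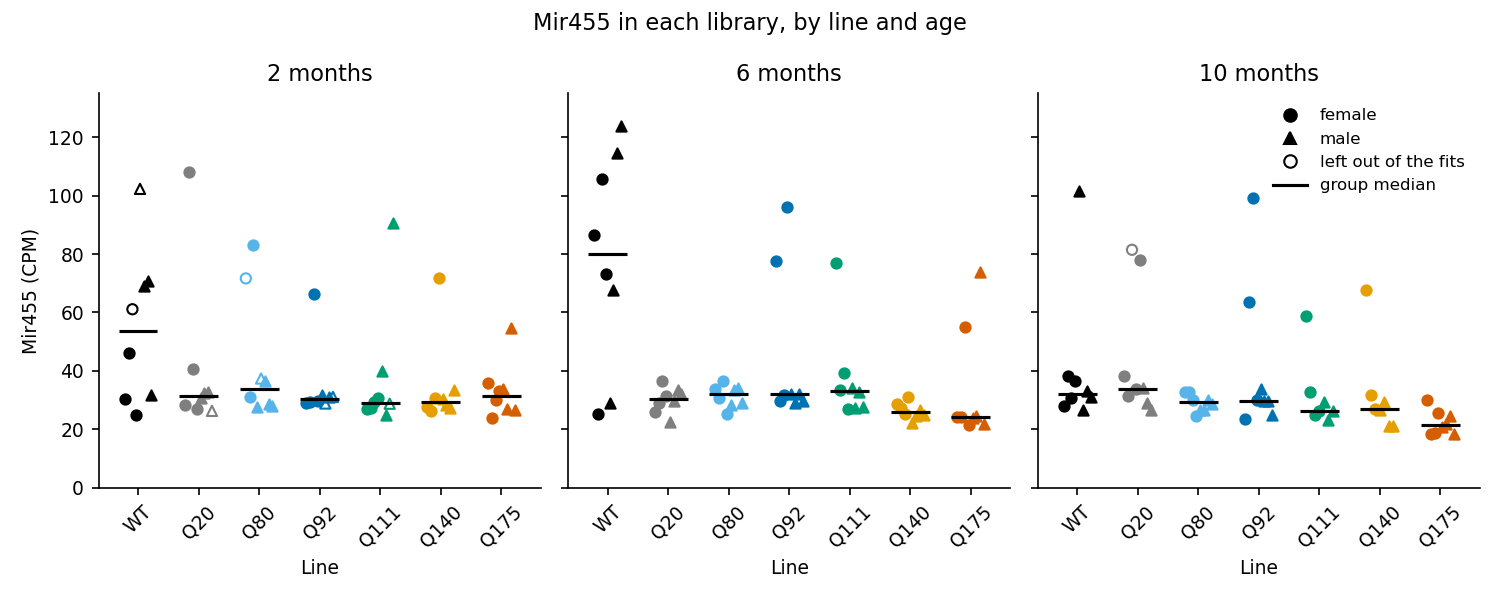
Mir455 level in CPM (vertical axis, linear) in each library of the 7 lines at 2, 6 and 10 months; circles are female and triangles male mice, open symbols are the 9 libraries left out of the fits and bars are group medians. Most group medians lie near 30 CPM, and 16 of the 21 groups hold libraries above 50 CPM. WT at 6 months has 6 of 8 libraries at or above 67.6 CPM, and Q175 at 10 months lies between 18.3 and 30.03 CPM.

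Ordered by median, WT at 6 months (80.0 CPM) and WT at 2 months (53.6 CPM) were the highest groups, followed by Q20 at 10 months (33.9 CPM) and Q80 at 2 months (33.8 CPM). The 3 lowest were Q140 at 6 months (25.9 CPM), Q175 at 6 months (24.2 CPM) and Q175 at 10 months (21.3 CPM). In all 20 pairs of neighbours in this order the ranges overlapped.

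The spread within groups exceeded counting error, by least in some groups without high libraries. The standard deviation (SD) was 9.98% of the group mean in Q80 at 10 months, where counting alone gives 8.73%, and 10.3% in Q140 at 6 months, where it gives 9.49%. In groups with high libraries it reached 67.7% (Q20 at 2 months), 63.3% (Q92 at 10 months) and 61.2% (WT at 10 months), where counting gives 8.40%, 7.61% and 7.64%. In edgeR's estimate the biological coefficient of variation of Mir455 was 38.3% against 23.1% for the trend at its abundance and a median of 11.2% over all 454 microRNAs. Per age it was 41.7% (2 months), 37.2% (6 months) and 35.6% (10 months). Mir455 ranked 87 of 454 by this coefficient.

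A level above 1.5 times the group median was found for Mir455 in 12.7% of libraries. Among the 223 tested microRNAs at least as abundant, the median of this share was 0% and Mir455 ranked 8, with a second transcript at the same share. Over all 454 microRNAs it ranked 107. The 7 above it were Mir448 (33.7%), Mir1298 (33.1%), Mir183 (22.9%), Mir34c (22.3%), Mir375 (22.3%), Mir34b (21.7%) and Mir182 (21.7%). Mir448, Mir1298, Mir34b and Mir34c belong to the choroid plexus list used here, and Mir182 and Mir183 to the sensory and pineal list. The group medians were taken over the same libraries, and the factor was chosen after the values were seen.

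At 6 months the Q175 and WT libraries, all of series 330, were 33.6 ± 19.7 and 78.2 ± 37.1 CPM (SD, n = 8 each). The 8 WT values were 25.1, 29.05, 67.6, 73.3, 86.6, 106, 115 and 124 CPM, and the 8 Q175 values were 21.4, 21.9, 23.97, 24.1, 24.3, 24.4, 55.1 and 73.8 CPM. The groups overlapped through the 2 high Q175 and the 2 low WT libraries, and 6 Q175 libraries lay below all WT libraries. The fitted log2 difference was -1.20 ± 0.27 (standard error, SE). With a term for library series, this value rests on WT, since the Q20 libraries of this age are of the main series. Its SE, however, rests on the spread of all lines of this age. With WT alone as control the difference was -1.23 ± 0.37. Over all 454 microRNAs 17.6% were called in this contrast at a false discovery rate (FDR) under 0.05, which is given as background only. In bulk tissue, fewer cells of a type and less RNA per cell cannot be told apart.

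At 10 months Q175 had 22.3 ± 4.21 CPM (SD, n = 8) and the 15 control libraries of the fit 39.7 ± 21.1 CPM. The Q175 values ran from 18.3 to 30.03 CPM (median 21.3) and the control values from 26.4 to 101 CPM (median 32.95). Of the Q175 libraries 7 lay below every control, and F1 at 30.03 CPM lay among the lower controls. The fitted log2 difference was -0.85 ± 0.24, and 25.8% of all tested microRNAs were called in this contrast. It was -0.92 ± 0.27 against WT alone and -0.72 ± 0.24 against Q20 alone. Without the WT library M1 at 101 CPM it was -0.63. The log2 ratio of the group medians, which single high libraries move little, was -0.63 at 10 months and -1.73 at 6 months, where most WT libraries were high.

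The replacement of outlying counts described in the study's methods was also applied to the whole table, a choice made after the values were seen. It replaced the Mir455 count of 5 libraries at 10 months, at 65.2 CPM or more without TMM before replacement, of 3 libraries at 2 months and of none at 6 months. The Q175 difference at 10 months was then -0.52 ± 0.14 and that at 6 months -1.20 ± 0.27. At 10 months the log2 differences of the other lines from controls also lay nearer 0 than those given below, at -0.17 for Q80, -0.07 for Q111 and -0.09 for Q140, and the slope per 100 CAG was -0.05.

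At 2 months, an age whose values did not choose Mir455, Q175 had 33.1 ± 9.62 CPM (SD, n = 8) and the 13 kept controls 44.0 ± 24.4 CPM. Q175 ranged from 23.8 to 54.7 CPM and the controls from 24.7 to 108 CPM, and 4 of the 8 Q175 libraries lay below the control median. The difference did not pass the test in edgeR's quasi-likelihood fit (log2 -0.42 ± 0.28, FDR = 0.766). In that contrast 0.22% of the microRNAs were called. The log2 ratio of medians was -0.03.

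In the lines of intermediate CAG length no difference of Mir455 from controls passed the test at any age. At 2 months the log2 difference was -0.17 ± 0.30 for Q80 (FDR = 0.986), -0.28 ± 0.30 for Q92 (FDR = 0.998), -0.17 ± 0.29 for Q111 (FDR = 0.939) and -0.35 ± 0.28 for Q140 (FDR = 0.979). At 6 months it was 0.06 ± 0.28 for Q80 (FDR = 0.981), 0.56 ± 0.28 for Q92 (FDR = 0.774), 0.30 ± 0.28 for Q111 (FDR = 0.928) and -0.19 ± 0.28 for Q140 (FDR = 0.968). At 10 months it was -0.46 ± 0.23 for Q80 (FDR = 0.655), 0.03 ± 0.23 for Q92 (FDR = 0.989), -0.36 ± 0.24 for Q111 (FDR = 0.839) and -0.31 ± 0.24 for Q140 (FDR = 0.576). At each age these lines share their controls with each other, and at 2 and 10 months also with Q175. A single estimate of spread serves all lines of an age, so an SE or FDR does not reflect the spread of its own line. At 6 months the SD of log2 CPM was 0.15 in Q140, 0.18 in Q80 and 0.22 in Q20. It was 0.50 in Q111, 0.69 in Q175, 0.70 in Q92 and 0.88 in WT. At 6 months, with the term for library series, the values of the intermediate lines rest on Q20 (median 30.5 CPM). The Q175 value of that age rests on WT (median 80.0 CPM), so the 2 are differences from unlike references.

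These differences stood against few calls in general. edgeR called 0% of the 454 microRNAs (0 of 454) in each of these contrasts but Q140 at 10 months, where it called 5.73%. Where it called 0, between 13 and 38 microRNAs had an unadjusted p under 0.05, and DESeq2 called 1 for Q92 at 2 months, 4 for Q111 at 6 months and 0 in the others.

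**Figure D3:**
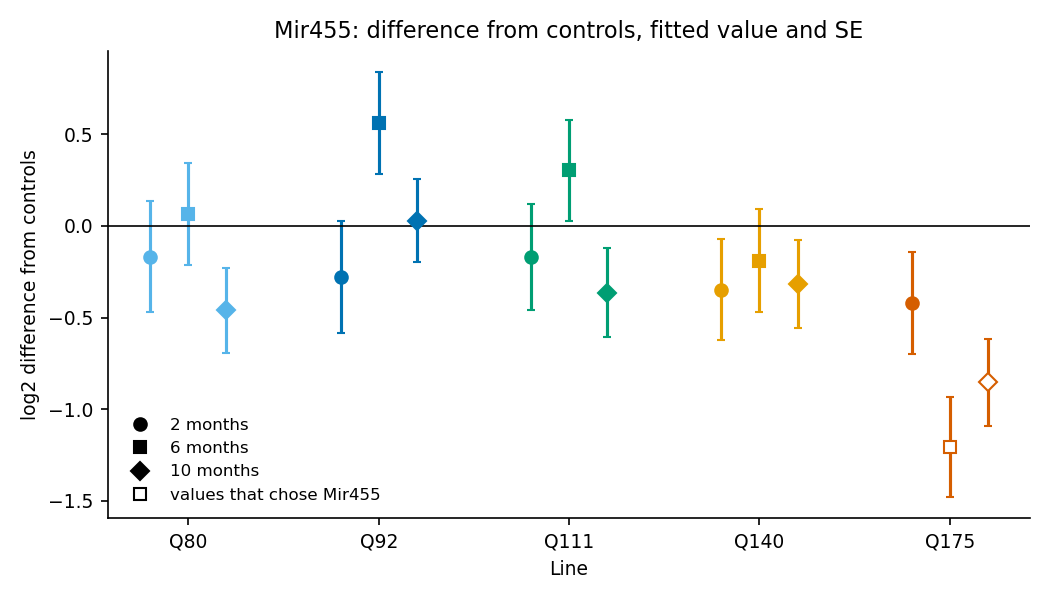
Fitted log2 difference of Mir455 from the controls of the same age (vertical axis) for the 5 longer CAG lines (horizontal axis); symbols mark the age and bars are 1 SE. Open symbols are Q175 at 6 and 10 months (-1.20 and -0.85), the values that chose Mir455, and the filled symbols lie between -0.46 and 0.56.

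Association with CAG length was tested without Q175, with WT set to 7. On the log2 scale the slope per 100 CAG was -0.26 ± 0.20 (2 months, FDR = 0.972), -0.0032 ± 0.23 (6 months, FDR = 0.9999) and -0.27 ± 0.17 (10 months, FDR = 0.558). None passed the test. At 6 months WT is the only group of its library series once Q175 is left out, so that slope rests on Q20 to Q140. Over all microRNAs 0% (29 with an unadjusted p under 0.05), 0% (32) and 0.661% were called in these fits, and DESeq2 called 0, 0 and 4.

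No difference between the 2 control lines passed the test. Q20 minus WT was -0.08 ± 0.34 on the log2 scale at 2 months (FDR = 1) and -0.15 ± 0.27 at 10 months (FDR = 0.968), with 0% of microRNAs called at either age (6 and 27 with an unadjusted p under 0.05 in edgeR). At 2 months this value rests on which libraries are kept, since 2 of the 4 high WT libraries (F3 at 61.1 and M1 at 102 CPM) were among those left out, and it was -0.44 ± 0.31 with all libraries (FDR = 0.983). At 10 months the high Q20 library F3 was left out, and the value with all libraries was -0.0026 ± 0.26 (FDR = 0.998). In a separate fit of the controls of both ages, the change of this difference from 2 to 10 months was -0.00051 ± 0.51 (FDR = 1), with 0% called and 11 at an unadjusted p under 0.05. With all libraries it was 0.52 ± 0.50 (FDR = 0.988).

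Of the 9 libraries left out, 4 were above 50 CPM (WT F3, WT M1 and Q80 F1 at 2 months and Q20 F3 at 10 months), as were 25 of the 157 kept. With all libraries kept, Q175 minus controls was -0.52 ± 0.27 at 2 months (FDR = 0.5005) and -0.93 ± 0.24 at 10 months.

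Female minus male was 0.05 ± 0.18 on the log2 scale at 2 months (FDR = 0.959), 0.19 ± 0.15 at 6 months (FDR = 0.570) and 0.33 ± 0.15 at 10 months (FDR = 0.551), so no sex difference passed the test. Over all libraries at 10 months, females had 39.1 ± 20.6 CPM (SD, n = 28) and males 29.7 ± 15.2 CPM (SD, n = 26), and 6 of the 7 high libraries of that age were female. Of all microRNAs 1.1%, 1.98% and 1.76% were called between the sexes at the 3 ages.

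Age comparisons were restricted to the main library series. Between 2 and 10 months in the controls Mir455 had a log2 difference of -0.13 ± 0.25 (FDR = 0.685) in a contrast in which 46.7% of the microRNAs were called. Between 2 and 6 months in Q20 it had a difference of -0.48 ± 0.28 (FDR = 0.195), where 40.3% were called. The 2-month libraries carried L1 and L2 and the 10-month ones L4 to L6, so age and lane cannot be told apart there. At 6 months Q20 carried L1 and L8, and the labels do not say whether L1 is the same run at both ages.

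By lane, 8 of 25 libraries of L2 at 2 months were high and 3 of 31 of L1. L2 had 45.8 ± 25.99 CPM (SD, n = 25) and L1 34.7 ± 13.1 CPM (SD, n = 31), with nearly equal medians of 30.7 CPM in both. Of the 8 WT libraries 6 were on L2, where 4 were high, and 2 on L1, at 30.4 and 46.2 CPM. With line and sex in the fit, L1 minus L2 was -0.24 ± 0.21 on the log2 scale (FDR = 0.661), and -0.35 ± 0.19 with all libraries (FDR = 0.294). Between these lanes 4.41% of all microRNAs were called.

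In the main series at 6 months, which holds neither WT nor Q175, 0 of 19 libraries of L1 and 3 of 20 of L8 were high. L1 ranged from 25.2 to 39.1 CPM (median 31.3) and L8 from 22.2 to 96.0 CPM (median 30.3). L8 minus L1 was 0.06 ± 0.15 on the log2 scale (FDR = 0.859), although 17.8% of all microRNAs were called between these lanes.

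In series 330 at 6 months lane and line were partly confounded, with 7 of the 8 Q175 libraries on L5 and WT divided equally between L5 and L6. The 4 WT libraries on L6 had 73.3, 106, 115 and 124 CPM, and the 4 on L5 had 25.1, 29.05, 67.6 and 86.6 CPM. The single Q175 library on L6 had 21.9 CPM, and the 7 on L5 ranged from 21.4 to 73.8 CPM (median 24.3). On L5 both lines therefore had low and high libraries, with 2 of 4 WT and 2 of 7 Q175 above 50 CPM. L6 minus L5 was 0.59 ± 0.46 on the log2 scale with line and sex in the fit. The Q175 difference at 6 months was -0.87 ± 0.31 with lane as a term, -0.58 ± 0.45 within L5, and -2.43 within L6, where it rests on 1 Q175 library.

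At 10 months L4 held no Q175 library. On L4 2 of 10 libraries were high, on L5 3 of 30 and on L6 2 of 14, and the lane medians were 28.3, 29.6 and 29.1 CPM. L5 minus L4 was -0.14 ± 0.21 and L6 minus L4 -0.13 ± 0.25 on the log2 scale. Within L5 the 5 Q175 libraries ranged from 18.3 to 30.03 CPM, the 3 WT from 27.8 to 32.95 CPM and the 4 Q20 from 31.5 to 78.0 CPM. Within L6 the 3 Q175 libraries ranged from 21.9 to 25.7 CPM, the 2 WT from 30.7 to 36.4 CPM and the kept Q20 library had 28.9 CPM. The Q175 difference was -0.80 ± 0.25 with lane as a term, -0.88 ± 0.24 within L5 and -0.24 ± 0.27 within L6. On L6 all 3 Q175 libraries nevertheless lay below every kept control. The fit within L6 also holds sex and libraries of other lines, and what makes its value smaller was not tested.

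**Figure D4:**
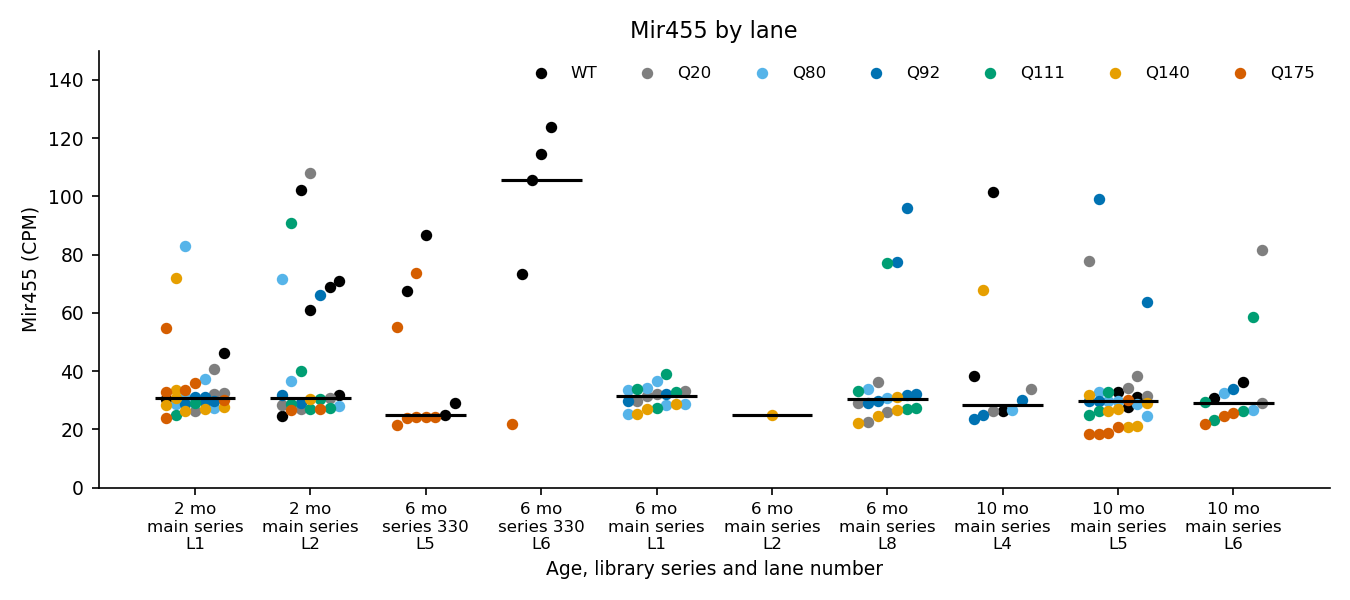
Mir455 level in CPM (vertical axis, linear) by age, library series and lane number (horizontal axis), with points coloured by line and bars at lane medians. High libraries appear on 8 of the 10 lanes shown, the L6 median of series 330 at 6 months is 106 CPM with 4 WT and 1 Q175 library, and the other lane medians lie between 24.97 and 31.3 CPM.

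To ask which microRNAs vary with Mir455 from mouse to mouse, each level was taken as the deviation of log2 CPM from the mean of its line and age over the 157 libraries. Libraries were permuted within these groups, with an FDR over the 453 other microRNAs. Likeness was weak. By rank correlation 2 microRNAs passed an FDR of 0.05 with a positive and 10 with a negative sign, and by Pearson's r 10 and 24.

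The 5 most alike were Mir328 (rho of 0.27, p = 0.00081, FDR = 0.0395; r of 0.38, p = 2e-05, FDR = 0.00181), Mir326 (rho of 0.27, p = 0.00145, FDR = 0.0505; r of 0.36, p = 1e-04, FDR = 0.00453), Mir421 (rho of 0.26, p = 0.00096, FDR = 0.0395; r of 0.27, p = 0.00085, FDR = 0.0175), Mir377 (rho of 0.25, p = 0.00238, FDR = 0.0645; r of 0.27, p = 0.00359, FDR = 0.0493) and Mir129-2 (rho of 0.25, p = 0.00161, FDR = 0.0521; r of 0.31, p = 0.00022, FDR = 0.0083), all by permutation. Mir377 belongs to the imprinted Dlk1-Dio3 domain. The 3 least alike were Mir383 (rho of -0.47, r of -0.60), Mir195a (rho of -0.42, r of -0.51) and Mir3057 (rho of -0.35, r of -0.40). For Mir383 and Mir195a both permutation p were 1e-05, the smallest that 100000 permutations can give (FDR = 0.00226 for rho and 0.00151 for r), and for Mir3057 p was 4e-05 for rho (FDR = 0.00453) and 1e-05 for r (FDR = 0.00151). Mir383 lies in an intron of Sgcz, and Mir195a is a member of the Mir15 and Mir16 family.

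These relations were also taken on either side of 50 CPM. This line cuts the range of Mir455 itself, which by construction lowers a correlation, so the values are not comparable with the pooled ones. Among the 132 kept libraries at or under 50 CPM, rho was -0.03 for Mir383, -0.21 for Mir195a, -0.12 for Mir3057, -0.01 for Mir328 and -0.02 for Mir326, and over all 453 microRNAs none exceeded 0.301 in size. Among the 25 kept libraries above 50 CPM, taken without group means, rho was -0.29 for Mir383, -0.24 for Mir195a, 0.19 for Mir3057, 0.48 for Mir328 and 0.36 for Mir326. Without the 2 libraries farthest from the median, r was -0.58 for Mir383, -0.50 for Mir195a, -0.43 for Mir3057, 0.34 for Mir328, 0.39 for Mir326, 0.23 for Mir421, 0.32 for Mir377 and 0.27 for Mir129-2. With lane means also removed, rho was -0.48 for Mir383, -0.43 for Mir195a, -0.38 for Mir3057 and between 0.25 and 0.28 for the 5 positive ones, and 10 positive and 25 negative relations passed the FDR.

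**Figure D5:**
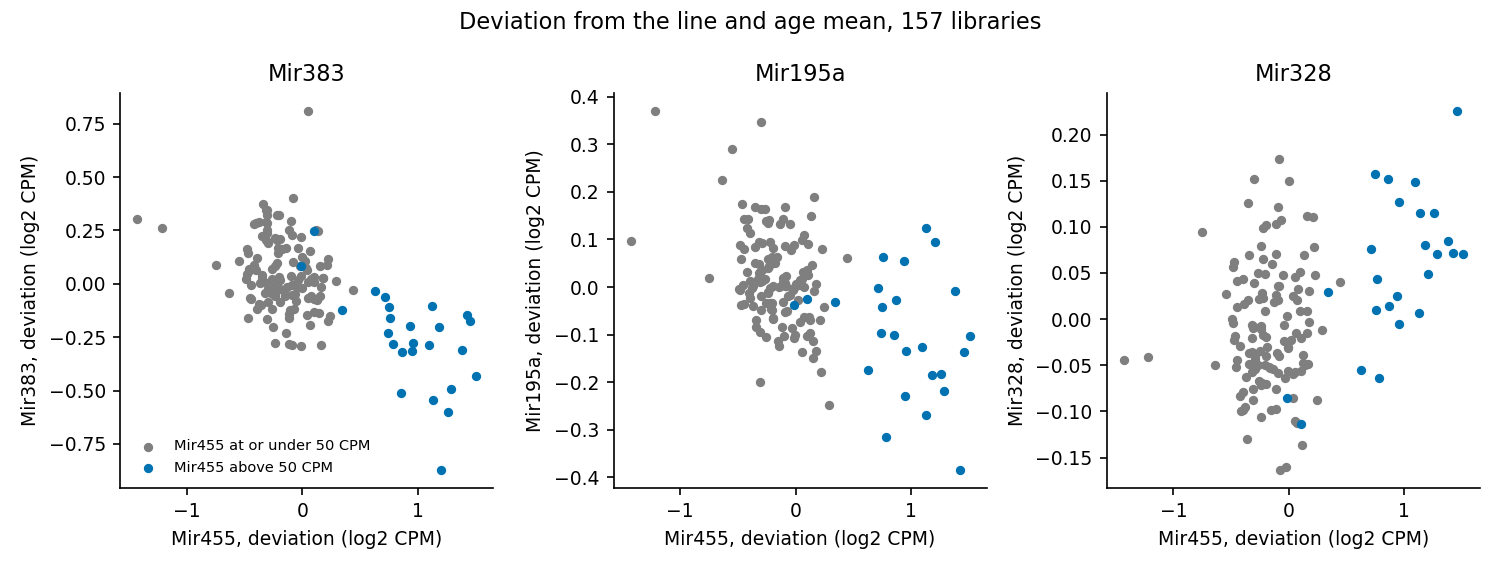
Deviation from the line and age mean (log2 CPM) of Mir383, Mir195a and Mir328 (vertical axes) against that of Mir455 (horizontal axes) in 157 libraries, with libraries above 50 CPM of Mir455 in blue. Mir383 is lower where Mir455 is high (rho of -0.47), and Mir328 is slightly higher (rho of 0.27).

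Lists of cell type markers were summed in CPM and their deviations set beside those of Mir455 in the 157 libraries. The rank correlation (rho) was 0.13 for choroid plexus (9 of 9 members tested), 0.06 for vascular and mural (6 of 7), 0.09 for erythroid (3 of 4), 0.03 for muscle (5 of 7), -0.02 for Hox-linked hindbrain (3 of 6), 0.03 for epithelial (4 of 5), -0.06 for sensory and pineal (3 of 3), -0.08 for neuron (7 of 8) and -0.18 for liver (3 of 5). For the cartilage list (4 of 5), which groups microRNAs known from the tissue where miR-455 is best known, rho was 0.12, for the brown fat list (6 of 9) -0.11, and for the intronic microRNAs in brain (8 of 8) -0.13. With permutation and an FDR over the 12 lists none passed, and the lowest was that of liver (p = 0.0169, FDR = 0.203).

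Members of these lists in the Q175 contrasts are given beside the 17.6% (6 months) and 25.8% (10 months) of all microRNAs called, and beside a median log2 difference over all tested microRNAs of -0.0023 and -0.06. At 6 months all 4 tested epithelial microRNAs were called higher (median log2 2.66), with summed levels of 1.19 to 111 CPM in Q175 and 1.78 to 5.67 CPM in WT, and 0 of 4 were called at 10 months. Of the intronic microRNAs in brain 4 of 8 were called higher at both ages (Mir335, Mir137, Mir488 and Mir218-2), and Mir338 was called lower at 10 months. Of the cartilage list 0 of 4 were called at 6 months and Mir140 was called lower at 10 months (log2 -0.14). Of the brown fat list Mir30c-1 was called higher at 6 months and Mir30b lower at 10 months. Of the other lists no member of choroid plexus, Hox-linked hindbrain or sensory and pineal was called at either age. Called lower were 1 of 6 vascular and mural microRNAs at 6 months (Mir143) and 1 at 10 months (Mir145a), 1 of 5 muscle microRNAs at both ages (Mir133a-1), and at 6 months 1 of 3 erythroid (Mir486) and 1 of 3 liver microRNAs (Mir192). Of the neuron list Mir128-1 was called higher and Mir124a-1 lower at 6 months, and Mir128-2 higher at 10 months. The choroid plexus sum in the fitted libraries ranged from 16223.9 to 25985.8 CPM in Q175 and from 16077.3 to 24945.2 CPM in WT at 6 months. At 10 months it was 16591.8 to 23072.3 CPM in Q175 and 16017.8 to 26569.9 CPM in controls. The lists were chosen with earlier results of these data known, so their shares of calls are not independent of those results. The part of these lists in the Mir455 values was not tested.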

How the data were processed

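Small RNA of 166 cerebella was sequenced by the authors, with libraries made from enriched fractions of total RNA from a column kit. By the study's methods reads were aligned with STAR to mm10 and counted with HTSeq; CASAVA 1.8.2 is named in the submitters' processing notes. The deposited counts are estimated counts per Ensembl transcript, not normalized (12.23% fractional in series 330, 22.75% in the others), and were rounded. The deposited RPKM values served as an alternative (log2 of RPKM + 0.5, limma 3.58.1). Libraries with a standardized connectivity below -5 within their age, on variance-stabilized counts of features passing filterByExpr, were left out (9). Each age was fitted with edgeR 4.0.16 (TMM, filterByExpr, quasi-likelihood, two-sided) in R 4.3.3, with sex, and library series at 6 months. In the contrasts with controls Q20 and WT were merged to 1 level, and the slopes used CAG length as a number. Each line had its own level in the sex, lane and Q20 minus WT fits. FDR is Benjamini-Hochberg over 454 microRNAs. Alternatives were a lane term, all libraries, DESeq2 1.42.0, its size factors in edgeR, no low-count filter, robust dispersion, a replicate block and single libraries left out. The fit was tested on simulated counts. Mir455, the microRNA lists and the tests were chosen with earlier results of these data known. The text names Mir455, the 5 microRNAs most and the 3 least alike in Spearman rho, those sharing a seed, and list members where a list is described; Mir375, Mir448, Mir1298, Mir34b, Mir34c, Mir182 and Mir183 were named for their spread after values were seen.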

Additional observations from a re-analysis of the deposited data

Results flagged for a closer look

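In 9 of the 21 groups of line and age, 1 high library stood apart from all others by Dixon's criterion, the gap to its nearest neighbour divided by the range of the group, taken on linear CPM (critical value 0.526 for 8 libraries and 0.568 for 7). The ratio was 0.825 for Q20 F2, 0.920 for Q92 F3, 0.768 for Q111 M4, 0.841 for Q140 F4 and 0.613 for Q175 M3 at 2 months, 0.760 for Q111 F1 at 6 months, and 0.842 for WT M1, 0.726 for Q111 F1 and 0.769 for Q140 F1 at 10 months. Chance alone flags about 1 in 20 groups if values are normally distributed, which was not tested here. Each of these libraries was above 50 CPM, and no group had a low library that stood apart. Groups with 2 or more high libraries are not marked by this criterion, since the high libraries lie near each other. All 9 passed the connectivity rule.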

How the results depend on the processing

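Over 31 results, 209 of 214 alternative values kept their direction and, for a test, their side of the threshold, or moved by less than the spread between libraries. This criterion is wide. The pooled SD of single libraries within groups was 0.57, 0.54 and 0.51 on the log2 scale at 2, 6 and 10 months. No tested result passed in the main fits, so the count says little about how stable the values are. The Q175 difference at 6 months moved to -0.58 within lane L5 and to -2.43 within L6. The difference at 10 months moved to -0.24 within L6, although each Q175 library there lay below every kept control of that lane. Leaving out 1 library at a time gave -1.52 (without Q175 M3) to -1.04 (without WT M4) at 6 months and -0.90 to -0.63 (without WT M1) at 10 months. With all libraries kept, Q92 minus controls at 10 months turned to -0.048 (FDR = 0.987), and the change of Q20 minus WT from 2 to 10 months turned to 0.52 (FDR = 0.988), an alternative chosen after seeing the data. With outlying counts replaced, also chosen later, the lowest FDR of a tested result was 0.0628 (female minus male at 10 months, 0.29 ± 0.09). The causes were not tested. With lane means removed, the FDR of rho fell under 0.05 for Mir326 (0.25), Mir377 (0.25) and Mir129-2 (0.26).

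Replicate numbers did not pair the libraries. Over 18 pairs of groups the same-numbered libraries had a median correlation of deviations of -0.00042, and in 0 pairs of groups did all exceed 0.1. With the replicate block the Q175 difference was -0.42, -1.19 and -0.71 in order of age, and no result tested with it passed. It was run for lines against controls and for slopes, and not for sex, Q20 minus WT, age or lane. Depth limits each value, since counting error alone averaged 5.56% (WT at 6 months) to 10.1% (Q175 at 10 months) of the level in a group.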
